A study of Mus musculus with 6 samples.

Results

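Alternative transcript starts within genes were followed in the ipsilateral cerebral cortex of mice after photothrombosis stroke. A start is the first exon of an assembled transcript, with its own position and its own FPKM (fragments counted per kilobase and per M fragments sequenced). Starts with a gene identifier had to be listed in all 6 libraries, and a gene was kept when it had at least 2 such starts and a summed start FPKM of at least 5 in every library. This gave 6683 starts in 2404 genes, of 33210 starts listed in any library. The share of a start was its FPKM as a percentage of the summed start FPKM of its gene, so a share does not move when all starts of a gene rise or fall together.

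The mice were male C57/BL6J animals of 6 to 8 weeks. Stroke was made by injection of the photosensitive dye Rose Bengal and cold light on the skull, and tissue was taken on day 1, day 3, day 7, day 14 and day 28 after it. The control group had the sham operation and was taken on day 7 after it. The RNA of 3 mice was pooled for each group, so each of the 6 groups is 1 poly(A)-selected, strand-specific library, and no value has a replicate. No test or error is given for that reason, a difference has no replicate check, and every comparison below is between pooled libraries. The stated mean depth was 33.6 M reads, and the depth of each library is unknown. The control library is on 1 side of every comparison with a day, so the 5 comparisons are not independent of each other.

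Many mammalian genes have more than 1 promoter, each with its own first exon. When the first exon carries the start codon, the choice of promoter changes the N-terminal end of the protein, and when it does not, only the leader of the mRNA changes. In brain this is known for ankyrins and reticulons. Promoters also differ in sequence: those used in many cell types often lie in CpG islands, stretches rich in the dinucleotide CG, while many tissue-restricted promoters are poor in it and more often hold a TATA box.

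The sequences around the starts of 6 genes are printed because their leading start differed between libraries and both of the starts that exchanged share had a RefSeq promoter entry. Each runs 5′ to 3′ on the strand of the gene, from 80 bases before the start to 20 bases from it on, taken from the RefSeq promoters of GRCm38.p6 (the build of mm10), and the capitals mark CG dinucleotides. Start 1 is the most upstream start of the gene throughout. Chromosome and window, strand, and the start within the gene are given first.
Ccnd3 start 1, chr17:47504971-47505070, plus strand: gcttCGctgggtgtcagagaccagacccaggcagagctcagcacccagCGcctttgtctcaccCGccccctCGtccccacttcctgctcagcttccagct
Ccnd3 start 2, chr17:47593356-47593455, plus strand: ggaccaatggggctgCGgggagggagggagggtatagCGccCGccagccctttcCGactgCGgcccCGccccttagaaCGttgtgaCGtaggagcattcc
Chn1 start 1, chr2:73775327-73775426, minus strand: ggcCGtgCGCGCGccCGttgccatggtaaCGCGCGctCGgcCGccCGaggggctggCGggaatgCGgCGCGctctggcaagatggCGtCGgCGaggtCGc
Chn1 start 2, chr2:73660387-73660486, minus strand: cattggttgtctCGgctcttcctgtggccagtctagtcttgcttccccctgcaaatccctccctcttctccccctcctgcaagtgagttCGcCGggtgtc
Gps1 start 1, chr11:120784192-120784291, plus strand: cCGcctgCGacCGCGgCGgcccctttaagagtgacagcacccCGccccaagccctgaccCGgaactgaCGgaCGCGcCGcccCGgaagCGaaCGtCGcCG
Gps1 start 2, chr11:120784435-120784534, plus strand: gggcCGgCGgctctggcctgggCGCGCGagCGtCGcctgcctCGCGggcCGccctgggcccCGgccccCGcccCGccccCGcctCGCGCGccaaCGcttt
Hpca start 2, chr4:129121721-129121820, minus strand: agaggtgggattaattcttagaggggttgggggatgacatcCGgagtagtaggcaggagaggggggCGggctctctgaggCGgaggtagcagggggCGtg
Hpca start 3, chr4:129121272-129121371, minus strand: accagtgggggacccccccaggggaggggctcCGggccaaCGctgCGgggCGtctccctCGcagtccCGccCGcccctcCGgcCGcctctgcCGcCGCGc
Nrxn3 start 2, chr12:88794424-88794523, plus strand: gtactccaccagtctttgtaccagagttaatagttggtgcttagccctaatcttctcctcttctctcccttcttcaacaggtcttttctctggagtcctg
Nrxn3 start 3, chr12:89812403-89812502, plus strand: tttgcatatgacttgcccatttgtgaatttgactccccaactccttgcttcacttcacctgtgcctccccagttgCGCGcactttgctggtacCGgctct
Spp1 starts 1 and 2, chr5:104435038-104435137, plus strand: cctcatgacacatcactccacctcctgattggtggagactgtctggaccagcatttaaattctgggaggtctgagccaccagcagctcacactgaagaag
Spp1 start 3, chr5:104436112-104436211, plus strand: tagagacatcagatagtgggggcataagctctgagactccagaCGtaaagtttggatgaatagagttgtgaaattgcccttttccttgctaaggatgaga
The windows range from 0 CG dinucleotides at Nrxn3 start 2 and at the first Spp1 position to 19 at Chn1 start 1. The CG-rich window is not always that of the leading start in control: Chn1 start 1 led with 19 against 3, whereas Ccnd3 start 1 led with 4 against 8.

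Of the 2404 genes, 1330 had 2 starts, 584 had 3 and 490 had 4 or more. The first and the last start of a gene lay a median of 9418.5 bases apart, with 1175 genes over 10 kb and 248 within 100 bases, of which 112 had all starts at 1 position and differed in the end of the first exon. Of the 6683 starts, 6059 (90.7%) lay within 100 bases of an annotated transcript start of the same gene in GENCODE M21, and 5900 lay exactly on one. Some of these and some of the rest, 974 of the 6683 starts (14.6%), lay inside an internal exon of another transcript of the gene, and 74 of them on its first base, where a splice acceptor and a transcript start have the same position. The starts inside an internal exon had a median share of 2.67% in control against 23.2% for the others, but 29.4% of them ranged over 20 points or more across the libraries against 29.9% of the others.

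Some loci join neighbouring genes under 1 identifier. In 219 of the 2404 genes at least 1 start lay outside the annotated span extended by 1000 bases, and in 51 genes no start lay inside it, which amounts to 435 starts. Where a described gene is affected, that is stated beside it.

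In control the leading start, the start with the largest share, held over 90% in 1231 genes (51.2%), and it was the most upstream start in 72.1%. The mean share of the most upstream start was 68.9% in control, 68.8% on day 1, 69.0% on day 3, 69.0% on day 7, 68.3% on day 14 and 68.8% on day 28. The largest difference from control in this mean over genes, on day 14, was below 1 point, and it was just over 1 point with missing starts taken as 0 (62.2% in control and 61.0% on day 14) and with starts joined inside the span (74.7% and 73.6%). Single genes moved much more: 1863 genes (77.5%) had the same leading start in all 6 libraries, while 944 (39.3%) had a start whose share ranged over 20 percentage points or more, 650 (27.0%) over 30 or more and 289 (12%) over 50 or more. In 687 genes (28.6%) no start ranged over 5 points or more.

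A gene is called shifted at a day when the share of at least 1 of its starts differed from control by 20 points or more. On day 1, 370 genes (15.4%) were shifted, on day 3 341 (14.2%), on day 7 314 (13.1%), on day 14 446 (18.6%) and on day 28 326 (13.6%). Among all genes with at least 2 starts in both libraries, without the FPKM floor and without the need to be listed in the other libraries, the percentages were higher, with 22.4 on day 1, 20.8 on day 3, 20.6 on day 7, 24.2 on day 14 and 20.6 on day 28. The median gene moved by 4.10 points on day 1, 3.88 on day 3, 3.70 on day 7, 4.64 on day 14 and 3.75 on day 28. Day 28, the latest point, and day 7 were close in these counts. Their order turned with missing starts taken as 0 (609 on day 28 against 620 on day 7) and with starts matched by coordinate (290 against 291). The order of the medians turned under both of these as well. It also turned with a floor of 10 FPKM (3.36 against 3.38 points), with close starts joined (3.13 against 3.31) and with starts joined inside the span (2.95 against 3.09). Libraries after stroke differed from each other as much as from control. Day 14 aside, their pairs ran from 335 genes (day 7 and day 28) to 394 (day 1 and day 3) at 20 points.

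**Figure D1:**
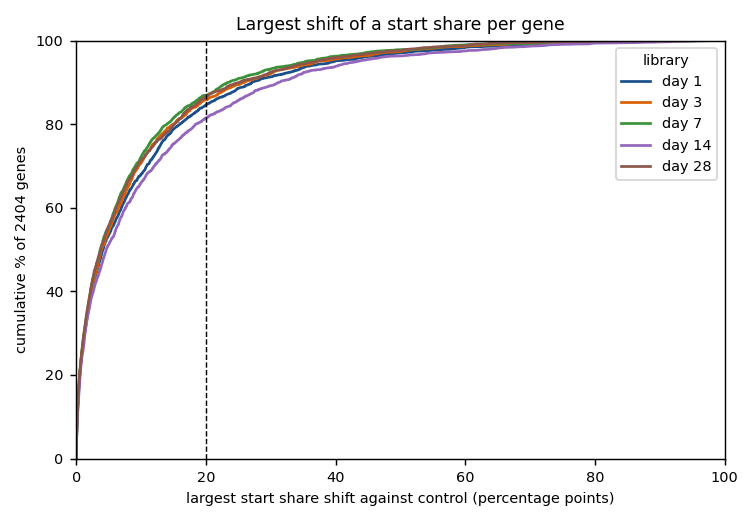
For each of the 2404 genes the largest difference of a start share from control (percentage points, x axis) is drawn as a cumulative percentage of genes (y axis), with 1 line per library after stroke and a dashed line at 20 points. The day 14 line lies lowest at 20 points, where 18.6% of genes are beyond it, against 13.1% to 15.4% at the other days.

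The leading start itself differed from control in 253 genes (10.5%) on day 1, 232 (9.65%) on day 3, 225 (9.36%) on day 7, 265 (11%) on day 14 and 236 (9.82%) on day 28, beside 14.5%, 14.1%, 13.9%, 15.4% and 13.7% of all genes with at least 2 starts in both libraries. The most upstream start was lower by 20 points or more in 143 genes (5.95%) and higher in 162 (6.74%) on day 1. On day 14 it was lower in 197 (8.19%) and higher in 157 (6.53%). On day 3, day 7 and day 28 the genes were 137, 123 and 123 lower (5.70%, 5.12% and 5.12%) and 136, 129 and 142 higher (5.66%, 5.37% and 5.91%). Over all genes with at least 2 starts in both libraries it was lower in 9.43, 8.18, 8.06, 11.3 and 8.05% over the 5 days in order, and higher in 9.08, 8.88, 8.7, 9.22 and 8.5%. Movement in both directions was therefore near equal on day 3 and leaned toward downstream starts on day 14.

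Share and level are separate quantities. Among the shifted genes, those whose summed start FPKM stayed within 1 log2 unit of control were 90.3% on day 1, 90.9% on day 3, 90.8% on day 7, 87.4% on day 14 and 95.1% on day 28, and among the remaining genes 95.4% to 98.1%. Most genes with a large move of share thus had a moderate move of level.

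The day 14 library stood apart. The 5 pairs of libraries that include it had 417 to 452 shifted genes, and the 10 pairs without it had 314 to 394. A start share on day 14 lay 20 points or more outside the range of the other 5 libraries in 115 genes (4.78%), against 66 for day 1, 58 for day 3, 50 for day 7, 46 for control and 42 for day 28. The day 14 library also listed the fewest starts, 20593 against 22784 to 24647 in the others. The summed FPKM of 6 cortical neuron markers (5 of them listed in all libraries) was lowest there, at 771 against 1191 in control, 1172 on day 1, 884 on day 3, 885 on day 7 and 1063 on day 28. Without day 14, 813 of the 2404 genes (33.8%) had a start ranging over 20 points or more, in place of 944.

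**Figure D2:**
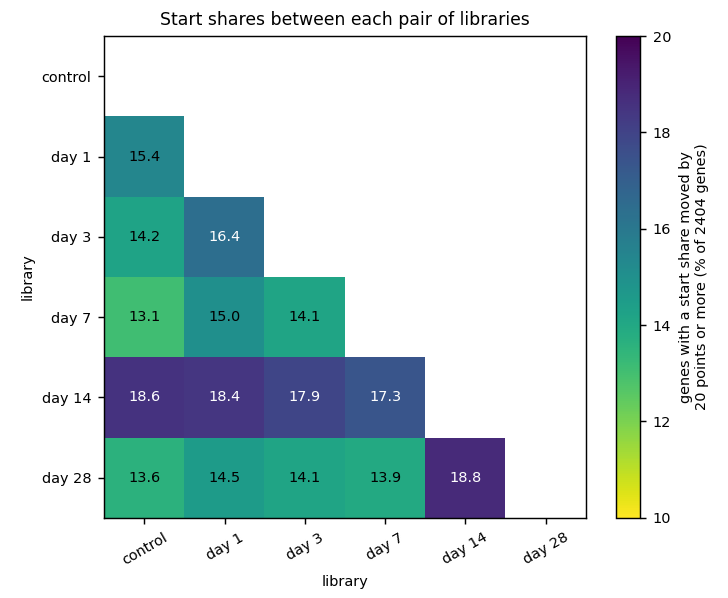
Each cell gives, for 1 pair of libraries, the percentage of the 2404 genes in which a start share differed by 20 points or more, coloured from 10 to 20%. The row and the cell of day 14 hold 17.3% to 18.8%, and the other 10 pairs 13.1% to 16.4%.

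Other cell markers moved as well. The summed FPKM of 5 astrocyte markers was 463 in control and 1235 on day 3. The 7 markers of microglia and macrophages went from 64.4 in control to 310.1 on day 7. Csf1r was not listed in any library and only 3 of the 7 were listed in all 6, so the sums do not all rest on the same markers. The 4 fibroblast markers, all listed throughout, went from 18 to 73.0. The 4 choroid plexus markers (3 listed in all libraries) ran from 184 on day 3 to 563 on day 28, with 289 in control, and the 4 striatal markers (3 listed in all, Drd1 not listed) from 159 on day 7 to 318 on day 28, with 240.3 in control. The 5 oligodendrocyte markers (3 listed in all, Mobp not listed) lay between 230.0 and 272.4, and the 4 endothelial and mural markers (2 listed in all) between 6.17 and 7.50 except for 13.4 on day 3. In bulk RNA, fewer cells of a type and less RNA per cell cannot be told apart. The part of cell composition in the shifts of starts was not tested.

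The percentage of shifted genes rose with the number of starts. The call takes the largest move over all starts of a gene, so more starts give more chances to pass the threshold. On day 1 it was 8.72% for 2 starts, 20.5% for 3 and 27.3% for 4 or more, and on day 14 12%, 23.1% and 30.8%. It fell with level: on day 14 it was 22.7% where the lowest summed start FPKM was 5 to under 10, 18.5% from 10 to under 20, 17.8% from 20 to under 50 and 9.77% at 50 or more. Even at the highest level, on day 7, 7.49% of genes (23 of 307) were shifted. The distance between first and last start had no such order, with 18.1%, 17.9%, 14.4% and 21.1% shifted on day 14 in genes spread over up to 100 bases, up to 1 kb, up to 10 kb and more.

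**Figure D3:**
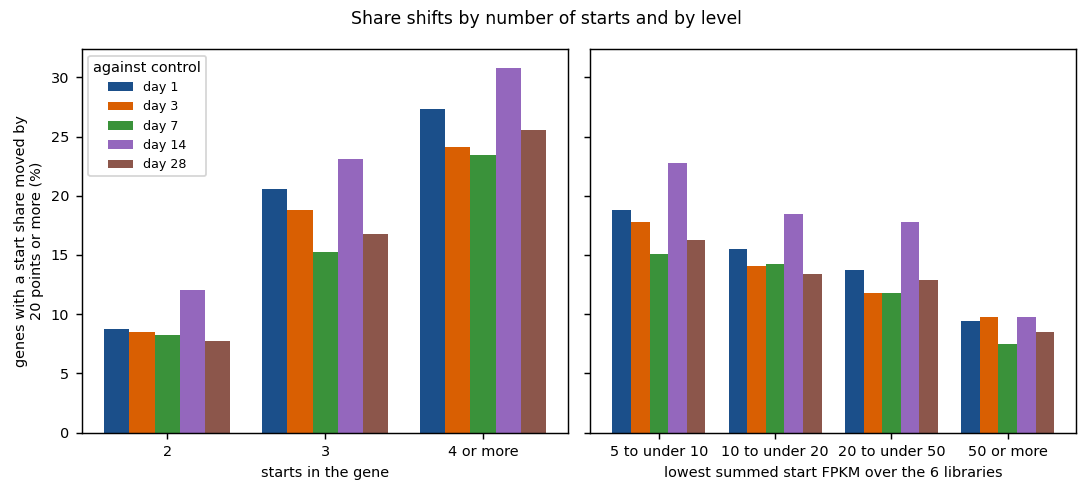
Bars give the percentage of genes shifted by 20 points or more against control (y axis from 0) at each day, by number of starts (left) and by the lowest summed start FPKM over the 6 libraries (right). On day 14 the bars run from 12% to 30.8% with more starts and from 22.7% to 9.77% with higher level.

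Among the 446 genes shifted on day 14, the start that gained most and the start that lost most lay over 1000 bases apart in 285 (63.9%) and within 100 bases in 73 (16.4%). They led to different annotated start codons in 59 (13.2%) and to the same one in 176 (39.5%), and for 211 (47.3%) 1 or both had no annotated start codon. On day 7 the counts were 42, 136 and 136 of 314. Where both starts had an annotated start codon, most shifts therefore kept it.

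In 43 genes (1.79%) the share of a start on day 3 and day 7 both lay 20 points or more beyond control and day 28 on the same side. The 10 with the largest such gap are described next, and since they were chosen for that pattern their values are a description of it. Ccnd3, a D-type cyclin of the cell cycle, had the largest gap. Its start 1 held 99.7% in control, 99.9% on day 1, 24.4% on day 3, 10.1% on day 7, 10.4% on day 14 and 99.8% on day 28. Start 2, which lies 88385 bases downstream, held the rest and went from 0.0192 FPKM in control to 11.1 on day 3 and 10.2 on day 7, while start 1 fell from 7.09 to 3.57 and 1.14. Start 2 thus led in 3 libraries and was below 1% in the other 3, with a summed start FPKM between 7.11 and 14.6. The start codon annotated for start 2 is also one of those annotated for start 1.

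Gps1, a subunit of the signalosome that removes Nedd8 from cullins, exchanged 2 starts only 243 bases apart. Start 1 held 97.3%, 97.8%, 52.9%, 40.3%, 96.0% and 98.5% in the order control, day 1, day 3, day 7, day 14 and day 28. Start 2 held 0.0558%, 0.0748%, 45.2%, 57.8%, 0.115% and 0.063% in the same order. Day 3 and day 7 were the libraries with start 2, and day 14 was like control, unlike in Ccnd3. Their annotated start codons differ, at 120784310 and 120784576 on chromosome 11 of mm10.

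Hpca encodes hippocalcin, a neuronal calcium sensor. Its start 3 held 96.1% in control, 53.0% on day 1, 50.3% on day 3, 24.5% on day 7, 97.3% on day 14 and 93.6% on day 28. Start 2, further upstream, held 0.0648%, 40.1%, 42.0%, 47.4%, 0.218% and 0.222%, and start 1 reached 24.7% on day 7. All 4 starts lead to the same annotated start codon. The summed start FPKM was 343 in control, 358 on day 1, 266 on day 3, 243 on day 7, 468 on day 14 and 392 on day 28, so the share of start 3 was lowest in the library with the lowest level.

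Apba2 (an adaptor of the amyloid precursor protein), Nup85 (a nuclear pore protein), Nfe2l1 (a transcription factor of proteasome genes) and Ino80e (a subunit of a chromatin remodelling complex) had more than 2 starts in play. In Apba2 start 2 held 24.3% in control, 77.7% on day 3, 80.4% on day 7 and 22.7% on day 28, and start 3 led on day 1 with 73.8%. In Nup85 start 1 held 20.5% in control, 80.8% on day 3, 78.5% on day 7 and 26.4% on day 28. In Nfe2l1 start 3 held 53.8% in control, 5.90% on day 1, 3.57% on day 3, 0.247% on day 7, 0.757% on day 14 and 63.6% on day 28, so control and day 28 stood against all 4 libraries between them. Start 4 of Ino80e showed the same split, with 43.2% in control, 50.7% on day 28 and under 0.01% in the other 4, in a first exon of 32 bases inside an internal exon of another transcript. Day 28 was not otherwise like control in Ino80e. With close starts joined, its largest shift from control was 50.1 points on day 28 and 58.3 to 69.0 on the other days. The summed start FPKM of Ino80e was 7.33 in control and 21.1 on day 28. The locus of Apba2 overlaps another annotated gene.

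The remaining 3 of the 10 exchanged starts that lie within 100 bases of each other. Zfand2a, a stress-responsive zinc finger gene, had starts 32 bases apart, and start 1 held 9.81% in control, 80.6% on day 1, 82.5% on day 3, 86.0% on day 7, 40.8% on day 14 and 8.28% on day 28. In Pip4p1, a lysosomal phosphoinositide phosphatase, start 1 lay 7 bases before start 2 and held 16%, 15%, 70.9%, 71.5%, 1.27% and 15.1%. In Pih1d1, a chaperone cofactor, the distance was 11 bases, and start 1 held 1.30%, 25.7%, 47.1%, 48.4%, 0.0115% and 1.94%. With starts within 100 bases joined, Zfand2a had a single start left, the largest range in Pip4p1 was under 1 point, and that in Pih1d1 was just under 20 points.

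**Figure D4:**
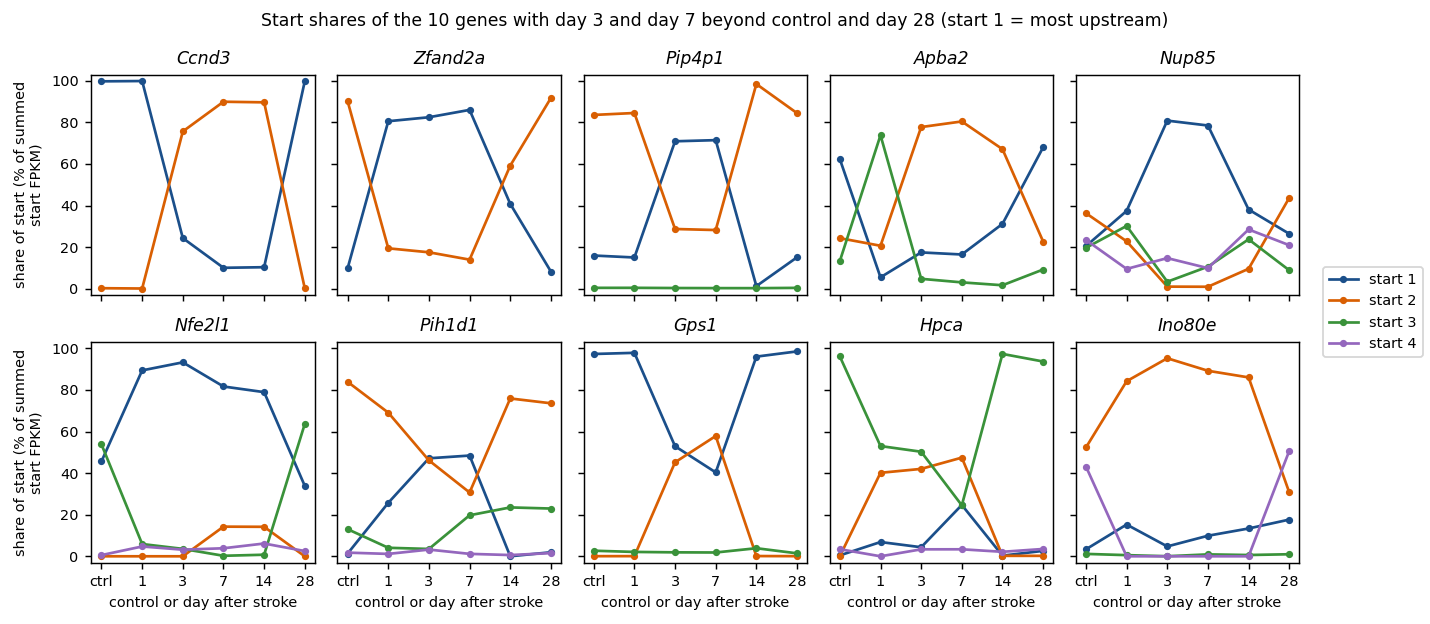
Each panel shows 1 of the 10 genes, with the share of each start in percent of the summed start FPKM (y axis) in control and on days 1 to 28 (x axis, 1 pooled library each) and start 1 as the most upstream. In Ccnd3 start 1 falls from 99.7% to 10.1% on day 7 and is at 99.8% on day 28, and in Gps1 it falls to 40.3% on day 7 and is at 96.0% on day 14.

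In 46 genes (1.91%) control lay 20 points or more outside the range of the 5 libraries after stroke. Each other library stood apart from the rest in the same way, from 42 genes (1.75%) for day 28 to 115 (4.78%) for day 14. Among the 46, Chn1, the Rac GTPase-activating protein chimaerin of neurons, had the widest gap. Its start 1 held 81.1% in control and 4.91%, 4.06%, 3.95%, 2.57% and 3.54% over the 5 days in order. Start 2, 114940 bases downstream, held 17.8% in control and 93.0% to 97.2% afterwards. In FPKM start 1 went from 133 in control to 5.59 to 7.93, and start 2 from 29.1 to 153 to 211, with a summed level between 162 and 217. The annotated start codons of start 1 and of start 2 are different ones. Control stood alone in this gene, since day 28 was on the side of the other days.

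The next 4 of the 46 genes by size of gap were Phf23, Akt1s1, Scamp5 and Ap1b1. Start 1 of Phf23 held 77.6% in control and 7.59% to 17.4% in the others. Start 1 of Scamp5, a secretory carrier membrane protein of synaptic vesicles, held 80.5% against 8.04% to 25.1%, but it lies 2 bases from start 2, and the range was under 1 point with close starts joined. In Akt1s1, an inhibitory partner of mTOR, starts 1 and 2 share their position and differ in the end of the first exon. Start 2 held 76.4% in control and 4.18% to 17.9% afterwards, and with close starts joined the largest range was 26.4 points. Start 1 of Ap1b1, a clathrin adaptor subunit, held 39.1% in control and 93.0% to 98.4% afterwards, where the summed FPKM in control, 5.72, was the lowest of the 6. The loci of Akt1s1 and Ap1b1 overlap other annotated genes.

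**Figure D5:**
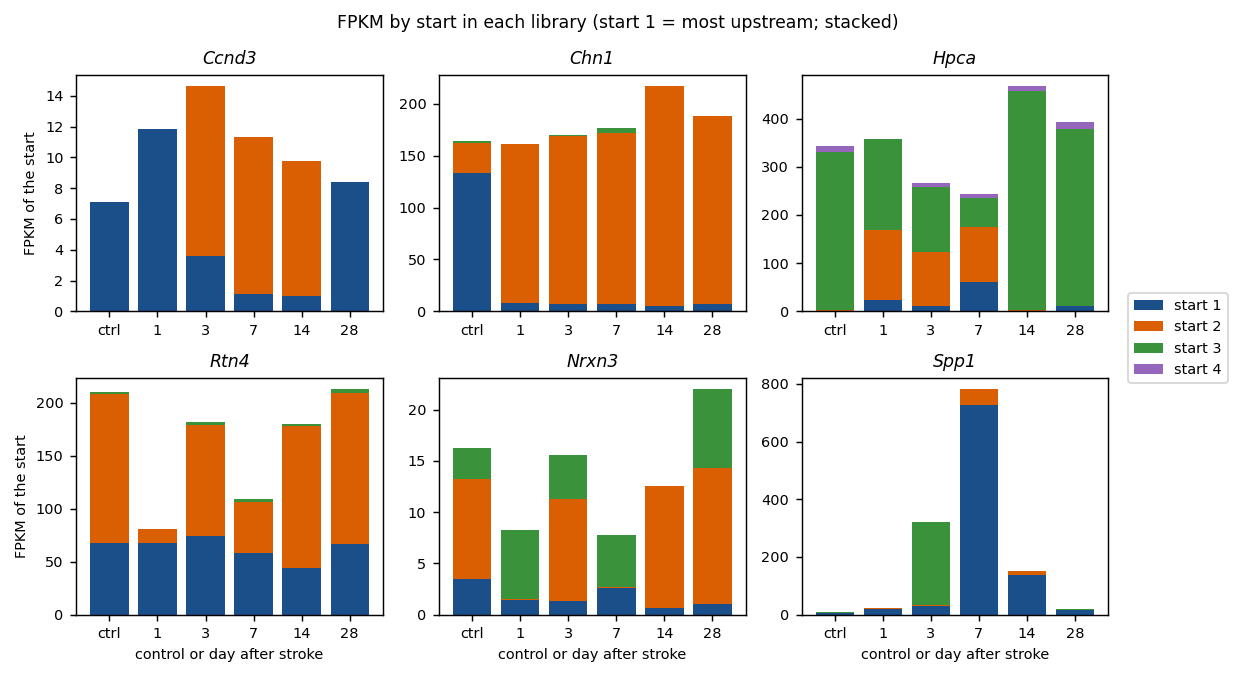
Stacked bars give the FPKM of each start (y axis from 0, different in each panel) in control and on days 1 to 28 for 6 genes, with 1 pooled library per bar. Chn1 stays between 162 and 217 in sum while start 1 goes from 133 to under 8, and Spp1 changes in sum and in start.

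The largest shifts of each day were near complete exchanges. Actr3, a subunit of the actin-nucleating Arp complex, was among the 5 largest on day 1 and day 7, where start 1 held 86.6% and 98.3% against 1.62% in control, 1.21% on day 3, 33.4% on day 14 and 1.31% on day 28. Its 2 starts lie 180 bases apart and share an annotated start codon. Tardbp, an RNA-binding protein of the nucleus, was among the largest on day 3, day 14 and day 28, where start 1 held 93.7%, over 99.9% and over 99.9% against 4.48% in control, 6.09% on day 1 and 12.2% on day 7. Its start 2, 5006 bases downstream, is a first exon of 42 bases inside an internal exon and has no annotated start codon. Neither gene followed the order of the days.

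Slc24a2, a sodium, potassium and calcium exchanger of neurons, moved on day 7 and day 14. Start 1 held 85.3%, 81.6%, 78.2%, 3.15%, 1.97% and 93.0% from control to day 28, start 3 took 76.6% on day 7, and start 2 took 97.9% on day 14. The 2 libraries thus lost the same start to different ones. Washc2, of the endosomal WASH complex, also lost start 1 late, with 95.2% in control, 83.1% on day 1, 95.1% on day 3, 9.62% on day 7, 1.14% on day 14 and 15% on day 28. Start 3, 478 bases downstream, held 60.2%, 47.2% and 54.7% in the last 3, and the largest range was 60.7 points with close starts joined.

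In single libraries, Stoml2, a protein of the mitochondrial membrane, gave 92.1% to start 3 on day 1 and at most 4.94% elsewhere. Bmpr2, a receptor of bone morphogenetic proteins, gave 95.6% to start 2 on day 14 and at most 0.533% elsewhere. Mrps17, of the mitochondrial ribosome, gave 98.4% to start 1 on day 3 and at most 22.7% elsewhere, among 3 starts within 80 bases. Isoc2b lost start 2 on day 3, with 1.22% against 68.6% to 88.6% in the others, its starts 3 and 4 lie near starts of Shisa7, and start 4 is outside its span. The locus of Bmpr2 and that of Isoc2b overlap other annotated genes.

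For some of the genes with the largest shifts the starts reach beyond the named gene. The starts under Mir3076 lie at annotated starts of Tkt, those under Mir3078 at Mir124a-1hg, and those under Snora70 at Rpl10, and no start lay in the span of the named gene. In Tkt, a transketolase, start 1 held 92.8% on day 1 and at most 0.697% elsewhere. In Prrt2, a presynaptic membrane protein, start 2 lies at Pagr1b, so its share, 12.2% in control, 21.7% on day 7 and 99.3% to 99.9% in the others, compares 2 genes. Start 2 of Rnpc3 lies inside the extended span of Rnpc3 but near a start of Amy1, so its share may also compare 2 genes. It held 93.7% on day 14 against at most 1.45%. In Kcnc2, a voltage-gated potassium channel, and Dctn1, a dynactin subunit, start 1 lay upstream of the annotated span: start 1 of Kcnc2 held 11.3% on day 1 and 89.6% or more elsewhere, and that of Dctn1 19.2% in control, 99.3% on day 1, 98.1% on day 3, 20.9% on day 7, 29.6% on day 14 and 63.8% on day 28. Start 3 of Dctn1 held 80% in control, 73.9% on day 7 and 69.7% on day 14 but under 0.1% in the other 3, and its summed FPKM was 60.5 in control and 10.4 on day 28.

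Genes were also read by role, from lists of symbols chosen with earlier results of these data known. Over all 2404 genes, 39.3% had a start that ranged over 20 points or more (33.8% without day 14), and the median range was 13.6 points. The shifted genes over the 5 days in order, given beside the lists as a description, were 15.4, 14.2, 13.1, 18.6 and 13.6% of all 2404. The lists were not matched to all genes in number of starts, and a difference by role was not tested. Of 48 symbols of synaptic proteins 24 were in the set, and 13 of them had such a start (10 without day 14), with a median range of 23.1 points. Over the 5 days in order, 6, 3, 7, 6 and 3 of the 24 were shifted. Nrxn3, a presynaptic adhesion molecule, gave start 2 60.4% in control, 1.89% on day 1, 64.1% on day 3, 1.16% on day 7, 94.6% on day 14 and 60.2% on day 28, and start 3, 1089607 bases downstream of start 1, held 18.4%, 81.2%, 27.6%, 65.7%, 0.274% and 35.0%. Day 1 and day 7 were therefore the 2 libraries led by start 3, and their summed level, 8.25 and 7.76 FPKM, was the lowest of the 6. Start 2 of Nrxn3 is at the first base of an internal exon, and the locus overlaps other annotated genes.

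Kalrn, a guanine nucleotide exchange factor of dendritic spines, gave start 3 20.8% in control, 71.5% on day 1, 71.4% on day 3, 65.3% on day 7, 23.4% on day 14 and 47.2% on day 28. In Dlgap1, a scaffold of the postsynaptic density, start 3 led in every library with 48.8% on day 7 to 93.6% on day 14.

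Of the 49 symbols of cytoskeleton and membrane scaffold 20 were in the set, 15 ranged over 20 points or more (12 without day 14), and 1 stayed under 5 points. The median range was 33.7 points, the widest of the lists, and 4, 7, 4, 8 and 5 of the 20 were shifted at the 5 days. Ank2, an ankyrin that ties membrane proteins to spectrin, gave start 1 54.0%, 81.5%, 48.7%, 76.4%, 2.54% and 54.7% from control to day 28. Ank3, the ankyrin of the axon initial segment, had its start 4 at 64.7% on day 14 and at 1.23% or less in the others, while start 1 stayed between 31.1% and 49.4%. Add1, an adducin that caps actin, gave start 2 28.4% on day 28 and at most 0.421% elsewhere. The widest range in Add1, 54.5 points, lay in another start. Its largest shift from control was 22.0 points on day 3, 35.6 on day 14 and 32.5 on day 28. The fourth of the genes with the widest range, Dtna, has a start outside its span and is named only. The loci of Ank2 and Add1 overlap other annotated genes.

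Of the 30 symbols of axon and reticulon genes 12 were in the set, and 5 ranged over 20 points or more (3 without day 14). At the 5 days 2, 2, 2, 1 and 1 were shifted. Rtn4 encodes Nogo, an inhibitor of axon growth. Its start 1 held 32.2% in control, 84.0% on day 1, 40.9% on day 3, 53.1% on day 7, 24.5% on day 14 and 31.3% on day 28. In FPKM start 1 went from 67.6 in control through 67.9, 74.5, 57.7 and 44.1 to 66.5 over the 5 days in order, and start 2, 25616 bases downstream, from 141 through 12.4, 104.8, 48.1 and 133 to 143. The gain of share of start 1 on day 1 thus came with a lower start 2 and a level start 1. On day 14 start 1 was at 44.1 FPKM against 67.6 in control, and start 2 at 133 against 141. The share of start 1 differed by less than 1 point between control and day 28.

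Ndrg4, a gene of neurons and heart, gave start 1 44.1%, 89.6%, 80.8%, 80.2%, 24.4% and 88.5% from control to day 28. Nfasc encodes neurofascin of the axon initial segment and the node of Ranvier. Its start 1 held 26.5% on day 3, where its summed FPKM was 8.61, and 72.8% to 99.4% in the others. Crmp1, a collapsin response mediator, gave start 1 59.9% in control, 41.5% to 49.7% on day 1, 3, 7 and 28, and 18% on day 14. None of these 3 genes had its lowest share of start 1 on day 28.

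Astrocyte and myelin genes gave 11 members of 28 symbols, and 3 ranged over 20 points or more, with a median range of 6.48 points. At the 5 days 2, 2, 1, 2 and 1 were shifted. Cnp, an enzyme of myelin, had start 1 at 45.0% in control and 23.5% on day 3, and at 97.4% to 98.1% in the other 4. Gpm6b, a proteolipid of glia and neurons, gave start 1 49.0%, 25.7%, 74.9%, 38.8%, 17.6% and 49.1%. Aldoc, the aldolase of astrocytes, gave start 2 at most 22.5%, on day 28. Cnp is itself one of the oligodendrocyte markers, whose sum, given above, varied little.

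Genes of microglia, lysosome and immune function gave 11 members of 40 symbols, and 3 ranged over 20 points or more (2 without day 14). No member was shifted on day 1, day 7 or day 14, and 1 was on day 3 and on day 28, where the percentages over all genes amount to about 1 or 2 of 11. Spp1, which encodes osteopontin, a secreted protein of activated microglia and macrophages, was the gene of day 3. Its summed start FPKM was 7.42 in control, 24.3 on day 1, 323 on day 3, 783 on day 7, 151 on day 14 and 18.5 on day 28. Start 3, 1074 bases downstream and inside the locus, held 13.1%, 1.49%, 89.7%, 0.189%, 0.476% and 8.10%, and start 1 held 78.2%, 84.7%, 9.53%, 93.0%, 90.8% and 91.9%. Most of the summed FPKM was thus assigned to start 3 on day 3 and to start 1 on day 7, with the same annotated start codon. Each of these days is 1 pooled library, and the division of FPKM between the starts was not tested. The Spp1 locus overlaps another annotated gene.

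C1qc, of the complement component that opens the classical pathway, rose in level from 16.5 FPKM in control to 113 on day 7, while start 1 stayed between 69.4% and 85.6%. Its starts 1 and 2 share 1 position and differ in the end of the first exon, so these shares compare exon ends. Ctsa, a lysosomal carboxypeptidase, went from 31.5 to 75.6 FPKM on day 7, and start 1 led throughout with 71.6% to 91.7%, a range just over 20 points. In Cd81, a tetraspanin, start 3 held 36.9% on day 28 and 9.44% or less in the others. In Ctsa the share of start 1 on day 7, where the level was highest, was 85.2% against 84.3% in control.

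Of the 44 symbols of signalling and transcription factors 17 were in the set, and 7 ranged over 20 points or more but 4 without day 14, which held 6 of the shifted genes against 1, 2, 2 and 1 at the other days. The 7 of 17 are 41.2%, near the 39.3% over all genes, whose count also fell without day 14, from 944 to 813. Ywhaz, an adaptor that binds phosphorylated proteins, had start 1 at 99.9% on day 14 and at 16.6% to 33.1% in the others. Gnb1, a G protein beta subunit, had start 1 at 78.4% on day 14 against 32.9% to 40.5%. Prkacb, a catalytic subunit of protein kinase A, had start 2 at 72.8% on day 3 against 14.7% to 26.5%, and start 3 was at 0.0154% there. Crem, another of the 4 widest, is named only.

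Ion transport and metabolism was the list with the narrowest median range, 5.29 points, with 15 members of 30 symbols. Of these 2 ranged over 20 points or more (1 without day 14), 7 stayed under 5 points, and 1 was shifted, on day 14. Slc12a5, the potassium and chloride cotransporter of mature neurons, fell in level from 70.0 FPKM in control to 33.0, 31.2, 30.5 and 26.5 on day 1 to day 14 and was at 83.0 on day 28. Its start 2 led throughout, with 73.3%, 86.9%, 75.5%, 81.9%, 77.6% and 55.6%. The calcium pumps Atp2b1 and Atp2b2 had their widest difference on day 14, where start 3 of Atp2b1 held 63.0% against 32.4% to 41.5%, and start 1 of Atp2b2 45.6% against 54.3% to 63.8%. Aldoa, a glycolytic aldolase, gave start 4 85.8% to 99.9%, with 1 of its 5 starts outside the annotated span and another annotated gene overlapping its locus.

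Transcript ends gave the nearest comparison, since they are listed in the same way. By the same rule 1839 ends in 751 genes were kept, and 43, 42, 40, 66 and 48 genes (5.73%, 5.59%, 5.33%, 8.79% and 6.39%) had an end share moved by 20 points or more over the 5 days in order. The median gene moved by 1.40 to 1.66 points. These are mostly other genes than those with alternative starts, and day 14 was highest for ends as well. In the 177 genes present in both sets, 22, 18, 23, 27 and 19 had a shifted start and 15, 16, 13, 21 and 14 a shifted end over the 5 days in order, so the gap between starts and ends was narrower there than over the full sets. On day 14, 5 of the 177 had both, which is 18.5% of those with a shifted start and 23.8% of those with a shifted end. These percentages are to be set beside 21 of 177 genes with a shifted end and 27 of 177 with a shifted start. Whether starts and ends shift together was not tested.

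A window from 80 bases before to 20 from the start on was at hand for 2304 of the 6683 starts (34.5%), so what follows covers about that part. Motifs were searched on both strands, with the letters TATAAA for a TATA box, CCAAT for a CCAAT box and GGGCGG for a GC box, which do not overlap as words. The windows held a median of 9 CG dinucleotides against 3 over 32851 RefSeq promoters of the same length, the GC box letters in 49.0% against 24.4%, the CCAAT letters in 21.1% against 17.3% and the TATA letters in 1.87% against 5.31%. The RefSeq promoters were not filtered by expression, whereas the member genes passed the FPKM floor in every library. The part of that filter in these gaps was not tested. At least 5 CG were found in 86.4% of the starts that led in control and 74.6% of the others, and in 87.0% of the most upstream starts and 72.9% of those further downstream. Starts that ranged over 20 points or more had at least 5 CG in 81.6% and the TATA letters in 1.47%, and those under 5 points in 86.5% and 2.57%. The windows of moving and of steady starts were therefore close in these counts.

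At the FPKM floor, the genes just outside were Mrps18b, Lrrc61, Msl3, Sh3kbp1 and Col4a2, with a lowest summed start FPKM from 4.99 up to the floor of 5, and those just inside were Dhx16, Exosc2, Cstf3, Zfr and Zfp362, with up to 5.03.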

How the data were processed

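RNA-seq of 6 pooled libraries, 1 per group, was used. The submitters' processing notes name Trimmomatic 0.30, HISAT2 2.0.1, HTSeq 0.6.1 and mm10 without their roles, and the program that made the event tables is not given in the sources used here. How that program divided the FPKM of a gene between its starts is therefore unknown, and it was not tested. The FPKM deposited by the authors are given per event (start, end or splicing event), with no value of 0 listed, and can be compared within a gene. Libraries were grouped by their labels.

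Starts were matched by event identifier, which denoted the same coordinates in every library, and a missing library removed a start. Shares, their differences from control and counts at 20 percentage points were computed in Python 3.11.15 with pandas 2.3.3. No test was made, since each group is 1 library, and no interval is given, since depth is unknown. Named genes were the 5 largest shifts per day, the 10 largest gaps of day 3 and day 7 beyond control and day 28, the 5 largest gaps of control, at most 4 members per list by range (1 of them is not reported here), and the 5 on each side of the floor. The members and lists were chosen with earlier results of these data known. Spans and start codons came from GENCODE M21, and windows from RefSeq GRCm38.p6. The bases from the start on were checked against GENCODE transcripts that begin there and were the same in 2224 of 2224. Alternatives were the floor, the threshold, a pseudocount of 0.1 FPKM, joined starts, starts inside the span (extended by 1000 bases), matching by coordinate, missing starts as 0, and genes on 1 locus. Splicing events other than starts and ends were left out, and so were 1116 starts without a gene identifier.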

Additional observations from a re-analysis of the deposited data

How the results depend on the processing

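No paired analysis was possible because each group is 1 pooled library. With a threshold of 10 points in place of 20, 767, 704, 669, 817 and 689 genes were shifted over the 5 days in order, and with 30 points 209, 190, 162, 258 and 181. With a floor of 10 FPKM the counts were 225, 204, 198, 271 and 201 (13.8%, 12.5%, 12.1%, 16.6% and 12.3% of fewer genes), and the leading start differed in 160, 154, 147, 165 and 150. With every start kept and a missing one taken as 0, 3680 genes entered, 687, 635, 620, 831 and 609 were shifted, and the leading start differed in 397, 392, 364 and 435 on day 1, 3, 7 and 14. More or fewer genes enter by construction in both. A pseudocount of 0.1 FPKM, a floor of 2, joined starts, starts inside the span, matching by coordinate and genes on 1 locus left all 22 counts, medians and means within 1.5 times, as did joined starts inside the span, an alternative chosen after seeing the data. That tolerance is wider than the gap between day 7 and day 14 (314 and 446 genes), so it cannot show whether differences between days hold. A mean share near 68.9% could not rise beyond it at all. Leaving out day 14, also chosen after seeing the data, gave 813 genes with a range of 20 points or more in place of 944. Day 14 had the most shifted genes in every alternative against control, and day 7 the fewest except with missing starts as 0 or matching by coordinate, where it was day 28. Low depth limits weak starts most, but it is unknown per library.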
